A study of Mus musculus with 3 samples.

Results

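Airway and glandular epithelium is coated with proteins that bind, starve or trap microbes, and 10 genes for such products or for their handling in secretory cells are described here: *Bpifa1*, *Reg3g*, *Ltf*, *Lcn2*, *Scgb1a1*, *Pigr*, *Agr2*, *Muc4*, *Wfdc2* and *Slpi*. They were taken by name, as 10 of the 18193 genes on the array, and all 10 had a probe set, a group of short probes read together for one transcript. They held 14 of 45037 probe sets. The list was chosen with the signals of these arrays known, so it was selected on the values given below, and all ratios between stages are a description without a test.

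The arrays came from a study of how the palatal shelves of the mouse embryo join. Maxillae of ICR fetuses, labelled female, were explanted at E14 into BGJB medium with penicillin and streptomycin and kept in suspension culture. Palatal tissue was microdissected after 5 h, when the shelves had not fused (before fusion), after 24 h (during fusion) and after 60 h (after fusion), and each stage was hybridized to 1 Affymetrix Mouse Genome 430 2.0 array. The methods give 5 samples per stage without stating whether their RNA was pooled. No treatment or mutation separates the groups, and the sample labels name the edge of the palatal processes at every stage, whereas the study shows shelf edge for the first stage and midline tissue for the later ones. Stage, hours in culture and piece of tissue therefore cannot be told apart. The spread between embryos is unknown, since no stage had a second array.

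The nasal and airway lining holds ciliated cells and secretory cells, and submucosal glands add fluid, mucin and antimicrobial protein. Bpifa1 (also called SPLUNC1) is a lipid-binding protein of upper airway secretory cells, Reg3g is a C-type lectin that binds bacteria, and lactoferrin (Ltf) and lipocalin 2 (Lcn2) withhold iron, the former directly and the latter through bacterial siderophores. Slpi and Wfdc2 carry WAP domains, a fold found in protease inhibitors. Muc4 is a membrane-bound mucin, Agr2 is a disulfide isomerase of the endoplasmic reticulum needed for mucin folding, Pigr carries immunoglobulin A across epithelium, and Scgb1a1 is the main secretory protein of club cells.

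Values are MAS5 signals, the software's estimate of probe set brightness on a linear scale, after all 3 arrays had been brought to the same trimmed mean. The floor of an array was the 95th percentile of 83 probe sets for olfactory, vomeronasal and taste receptors, and it stood at 19.4 before, 13.3 during and 14.6 after fusion. Between 56.9% and 65.8% of the probe sets lay above it. A signal under the floor was raised to it, so a ratio with one such side is a bound, and none is given where both sides were under the floor. The only spread in the values was that between probe sets of one gene, with an SD of the log2 ratio of 0.37 between the first 2 arrays, 0.44 between the last 2 and 0.46 between the first and the last. It is technical. All 19 palatal mesenchyme markers and all 22 pan-epithelial markers lay above the floor on the 3 arrays. Signals of different probe sets are set against each other only for the floor, the receptor probe sets and the choice of each gene's brightest one. They are also added up in the summed signals of lists. Such a sum gives most weight to the brightest probe sets and includes signals under the floor.

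Of the 10 genes, 3 lay above the floor before fusion (*Bpifa1*, *Wfdc2* and *Slpi*), 8 during fusion and the same 8 after it. *Scgb1a1* and *Pigr* lay under the floor on all 3 arrays. During fusion 3 of the 7 genes with a ratio were over 2-fold higher than before it, beside 5.78% of all genes. Of these 7 ratios 4 are lower bounds, and those of *Ltf*, *Lcn2* and *Agr2* do not show whether the gene passed 2-fold. With no floor all 10 genes have a ratio, and 8 were over 2-fold higher in this comparison. *Pigr*, under the floor on both arrays, is among the 8, and no share of all genes was computed without a floor. After fusion 8 of 8 were over 2-fold higher than before it, beside 12.9% of all genes. From during to after fusion 7 of 8 were, beside 8.82%. None was over 2-fold lower, beside 3.36% of all genes during over before, 9.92% after over before and 5.13% after over during, and at such shares a count of 0 among 7 or 8 genes carries no information. The first and second comparisons share the array before fusion. The genes' median log2 ratios were 0.37, 2.82 and 2.32 in that order, beside -0.02, -0.07 and -0.04 for all genes, with bounds entered at their floor value. The first was 2.15 with no floor. Because the list was selected on these values, nothing is read from those shares. In a piece of tissue, more cells of a type and more RNA per cell cannot be told apart.

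**Figure D1:**
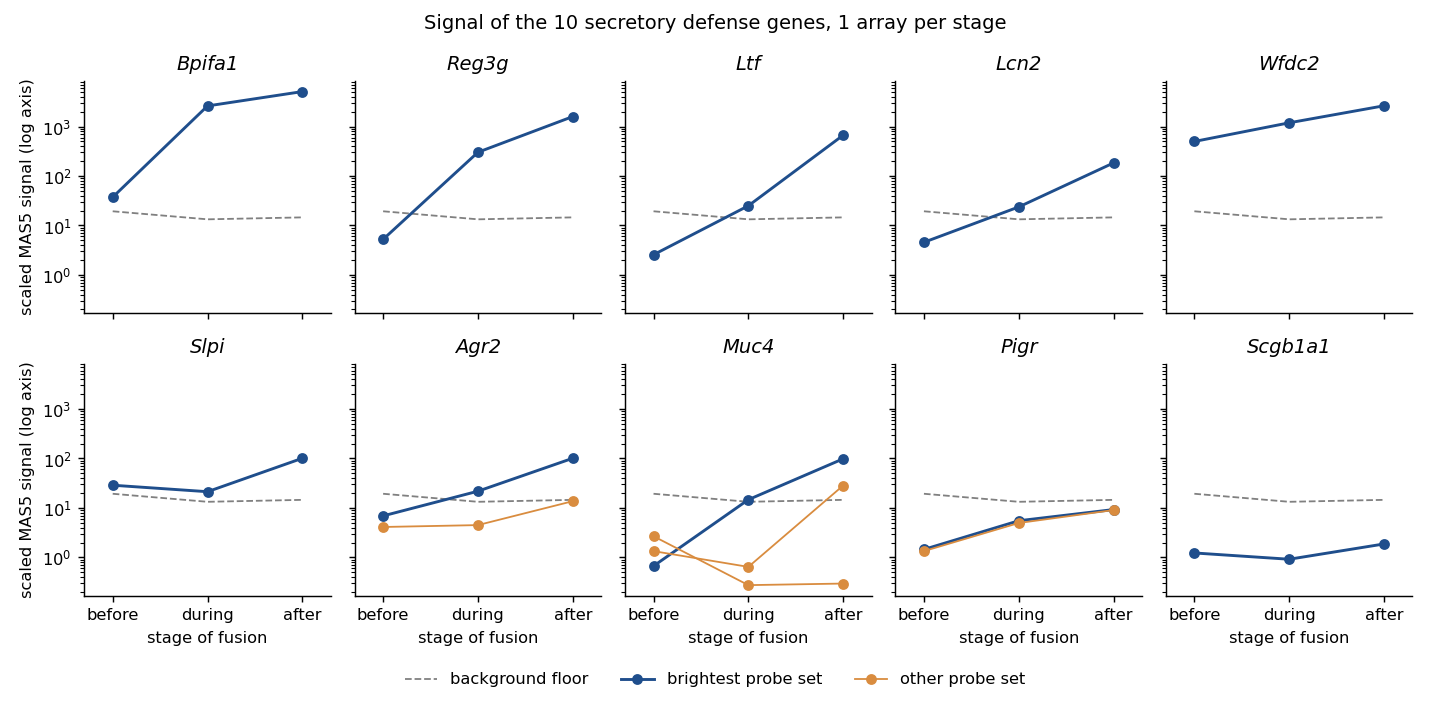
Scaled MAS5 signal (log axis) of every probe set of the 10 genes at each stage (1 array each: before, during, after), with the background floor dashed. *Bpifa1*, *Reg3g* and *Wfdc2* lie well above the floor during and after fusion. The brightest probe sets of *Ltf*, *Lcn2*, *Agr2* and *Muc4* lie a little above it during fusion and clearly above it after. *Pigr*, *Scgb1a1* and 1 further probe set each of *Agr2* and *Muc4* stay under it.

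The promoters of *Bpifa1*, *Reg3g*, *Ltf* and *Lcn2* are shown because these genes had the 4 largest values of after over before fusion with bounds taken at their floor value. Each window runs from 250 bases before the annotated start to 50 bases after it, 5′ to 3′ along the gene, from the RefSeq annotation of GRCm38.p6. Capitals mark matches, on either strand, to 5 motifs. The TATA box was searched as TATAAA. The core of FOX factors was searched as TGTTTNC. The core of ETS factors was searched as AGGAAG. That of C/EBP factors was searched as TTGCNNAA, and the fifth motif was the NF-κB consensus. The NF-κB match reads as one on both strands and no other matches overlap. The windows lie at chr2:154142630-154142929, plus strand for *Bpifa1*, at chr6:78468825-78469124, minus strand for *Reg3g*, at chr9:111019042-111019341, plus strand for *Ltf* and at chr2:32387690-32387989, minus strand for *Lcn2*.
Bpifa1: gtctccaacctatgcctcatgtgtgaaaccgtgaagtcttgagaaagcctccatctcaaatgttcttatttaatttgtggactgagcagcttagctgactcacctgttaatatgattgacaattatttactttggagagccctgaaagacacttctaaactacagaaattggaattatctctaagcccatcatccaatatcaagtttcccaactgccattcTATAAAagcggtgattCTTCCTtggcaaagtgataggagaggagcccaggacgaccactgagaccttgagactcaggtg
Reg3g: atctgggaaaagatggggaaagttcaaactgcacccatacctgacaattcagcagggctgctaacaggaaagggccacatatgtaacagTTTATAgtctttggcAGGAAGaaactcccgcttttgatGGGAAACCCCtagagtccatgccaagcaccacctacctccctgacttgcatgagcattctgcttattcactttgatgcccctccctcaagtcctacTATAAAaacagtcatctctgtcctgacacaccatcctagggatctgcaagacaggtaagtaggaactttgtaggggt
Ltf: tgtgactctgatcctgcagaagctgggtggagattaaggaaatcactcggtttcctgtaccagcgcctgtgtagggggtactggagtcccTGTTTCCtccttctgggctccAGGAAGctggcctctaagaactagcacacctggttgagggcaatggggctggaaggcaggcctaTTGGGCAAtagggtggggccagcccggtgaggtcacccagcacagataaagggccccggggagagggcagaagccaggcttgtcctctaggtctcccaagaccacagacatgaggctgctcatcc
Lcn2: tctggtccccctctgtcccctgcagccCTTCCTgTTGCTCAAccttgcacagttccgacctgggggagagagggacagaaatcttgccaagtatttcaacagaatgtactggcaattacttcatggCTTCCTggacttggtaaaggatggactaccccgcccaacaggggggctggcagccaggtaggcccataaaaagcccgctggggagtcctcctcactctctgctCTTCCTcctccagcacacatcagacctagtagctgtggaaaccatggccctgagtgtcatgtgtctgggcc
*Bpifa1* and *Reg3g* hold TATAAA 29 and 27 bases before the start, while *Ltf* and *Lcn2* hold a C/EBP match 75 and 216 bases before it. The NF-κB consensus was matched in *Reg3g* alone among the genes with a window, 123 bases before the start. Of the 10 genes, 9 had a window. Over these, TATAAA was in 3 (*Bpifa1*, *Reg3g* and *Muc4*, in the last 36 bases before the start), TGTTTNC in 3 (*Ltf*, *Agr2* and *Pigr*), TTGCNNAA in 3 (*Ltf*, *Lcn2* and *Slpi*) and AGGAAG in 7. Among all 32851 windows, TATAAA was in 13.6%, TGTTTNC in 20.5%, TTGCNNAA in 10.8%, AGGAAG in 35.4% and the NF-κB consensus in 8.46%. A match is a description of the letters and not of a binding site.

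*Bpifa1* was above the floor on all 3 arrays. Its signal was 37.3 before fusion, 2610 during fusion and 5090 after fusion. It was therefore 69.8-fold higher during than before fusion and 136-fold higher after than before, whereas after over during fusion it was 1.95-fold, short of the 2-fold line. Before fusion 1 of the 83 receptor probe sets was brighter, so the denominators of the 2 larger ratios lay near background. *Bpifa1* lies between *Bpifa3* and *Bpifa5* in the genome, and both neighbours were under the floor on every array.

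*Reg3g* was under the floor before fusion at 5.24, where 38 of the 83 receptor probe sets were brighter. Its signal was 302 during fusion and 1590 after fusion. The ratios to the first array are bounds, at least 15.6-fold during and at least 82.0-fold after fusion, and after over during fusion it was 5.26-fold higher. The size of its difference from the first array is not known beyond these bounds.

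*Ltf* was brightest by far on the last array. Its signal was 2.56 before fusion, under the floor, then 25.0 during and 668 after fusion. The ratio during over before has a bound of at least 1.29-fold, which does not decide whether it passed 2-fold. After over during fusion *Ltf* was 26.8-fold higher, and after over before at least 34.5-fold. Its signal during fusion lay near the floor of 13.3, and after over during was 16.8-fold with the floor added to every signal. *Lcn2* had the same order of stages, with signals of 4.57 before fusion (under the floor), 23.7 during and 184 after fusion. It was at least 1.22-fold higher during than before fusion, 7.75-fold higher after than during, and at least 9.49-fold higher after than before. On the array during fusion 1 of 83 receptor probe sets was brighter than *Lcn2*, so that its signal there lay near background.

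The pair with WAP domains had measured ratios at every step. *Wfdc2*, a small secreted protein of airway and gland epithelium, was well above background on all arrays, with signals of 499 before, 1190 during and 2630 after fusion. It was 2.39-fold higher during than before fusion, 2.20-fold higher after than during and 5.27-fold higher after than before. *Wfdc2* was thus the one gene of the 10 well above background before fusion. *Slpi*, the secretory leukocyte protease inhibitor, had signals of 28.8, 21.3 and 101. Its log2 ratio during over before was -0.43, beside the SD between probe sets of 0.37, and it was the only one of the genes above the floor on both arrays with a lower signal during than before fusion. After fusion *Slpi* was 4.72-fold higher than during and 3.50-fold higher than before. On the first 2 arrays 1 of 83 receptor probe sets was brighter than *Slpi*, so its decrease lay near background.

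*Agr2* and *Muc4*, which act in mucin folding and at the cell surface, were likewise brightest on the last array. The brighter *Agr2* probe set read 6.91 before fusion (under the floor), 21.8 during and 101 after fusion, which is 4.66-fold from during to after and at least 5.24-fold from before to after. The other, an _x_at set with probes that may match further sequences, read 4.12, 4.50 and 13.7 and stayed under the floor. The brightest *Muc4* probe set, also an _x_at set, read 0.669 before (under the floor), 14.7 during and 98.5 after fusion. It was 6.71-fold higher after than during fusion and at least 5.09-fold higher after than before, and no ratio of during over before could be given because the floor before fusion was above the signal during fusion. A second *Muc4* probe set read 1.34, 0.643 and 28.4 and passed the floor after fusion alone, at least 2.14-fold higher than during fusion and at least 1.47-fold higher than before. The third read 2.68, 0.275 and 0.296 and lay under the floor throughout. The probe sets of *Agr2* and of *Muc4* thus did not give one answer, and the values for both genes rest on 1 probe set for the size of the difference. During fusion 1 of 83 receptor probe sets was brighter than *Agr2* and 3 were brighter than *Muc4*, so both signals lay near background. With the floor added to every signal, after over during fusion was 3.13-fold for *Agr2* and 3.76-fold for *Muc4*.

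*Scgb1a1* read 1.23 before, 0.918 during and 1.87 after fusion, all under the floor, and 48 of 83 receptor probe sets were brighter after fusion. *Pigr* read 1.45, 5.51 and 9.27 on one probe set and 1.34, 4.96 and 9.07 on the other, also under the floor throughout, with 19 receptor probe sets above the brighter one after fusion. Neither gene was detectable on these arrays, and no ratio is given. Signals above the floor were therefore found for 8 of the 10 genes, and not for *Scgb1a1*, the defining protein of club cells.

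**Figure D2:**
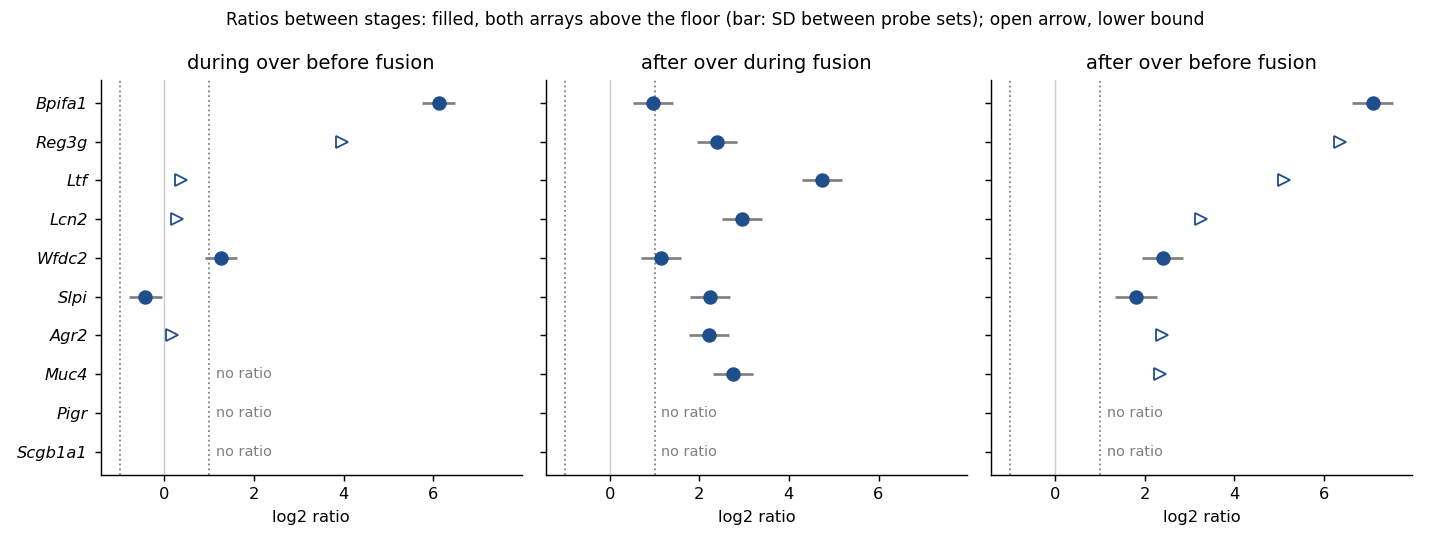
Log2 ratio of the brightest probe set of each of the 10 genes in the 3 comparisons, with dotted lines at 2-fold. Filled circles have both arrays above the floor and carry the SD between probe sets of one gene (0.37, 0.44 and 0.46 from left to right), open arrows are lower bounds, which cannot be ranked against the circles. In the middle panel all 8 ratios are measured and *Ltf* has the largest. The signals during fusion of *Ltf*, *Lcn2*, *Agr2*, *Muc4* and *Slpi* lay from 14.7 to 25.0, near the floor of 13.3.

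**Figure D3:**
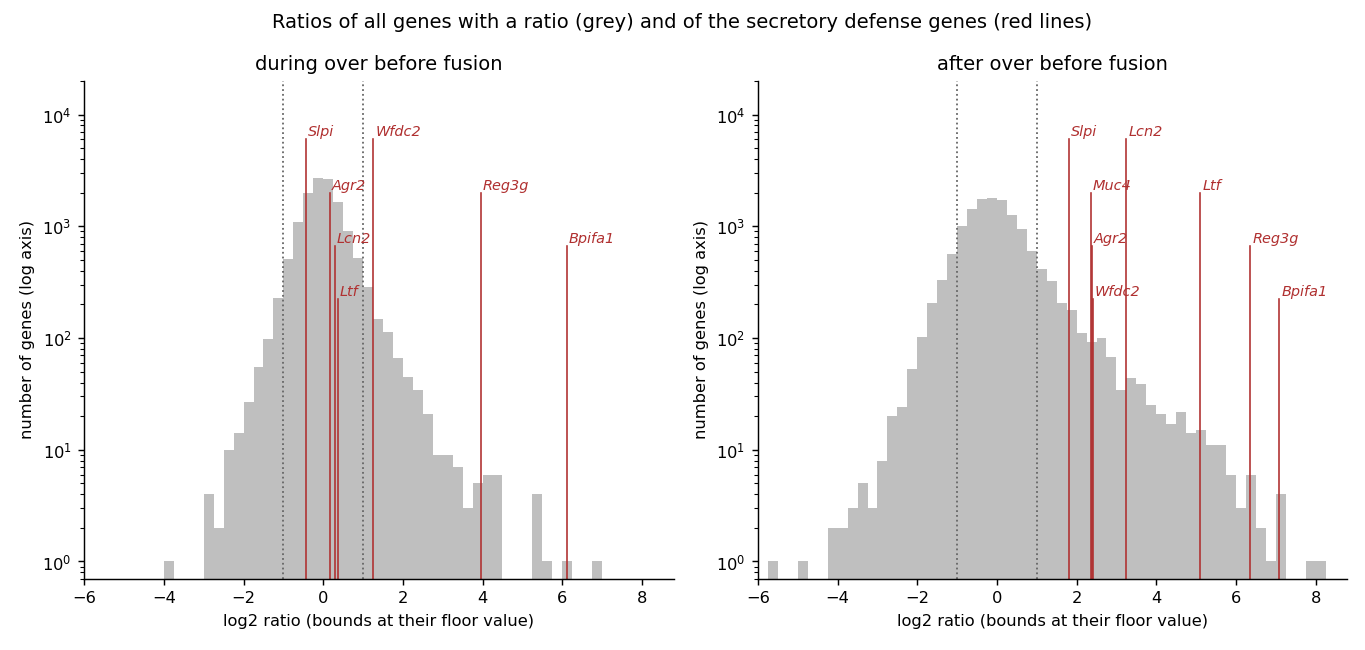
Number of genes (log axis) by log2 ratio for during over before and after over before fusion, with the secretory defense genes as red lines, whose height carries no value, and 2-fold dotted. During fusion *Bpifa1*, *Reg3g* and *Wfdc2* lie beyond the 2-fold line, and after fusion all 8 genes with a ratio do.

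The closest relatives of the 10 genes mostly stayed near background. In the BPI fold family, 1 of the 4 other genes with a ratio was over 2-fold higher after than before fusion: *Lbp*, which binds lipopolysaccharide, had signals of 95.9, 71.0 and 373 (3.89-fold). *Pltp* was bright on all arrays, with signals of 2040, 1850 and 4000 (1.96-fold after over before). After over during fusion 2 of 6 were over 2-fold higher, *Lbp* (5.25-fold) and *Pltp* (2.16-fold). Of the 6 other Reg lectins 2 had a ratio of after over before and 0 passed 2-fold. *Reg3b*, which like *Reg3g* encodes an antibacterial lectin, read 25.9, 8.82 (under the floor) and 18.9. Of the other lipocalins and odorant-binding proteins 0 of 4 with a ratio passed 2-fold. Among the other secretoglobins 0 of 2 did, and *Scgb3a1* read 18.7, 22.0 and 36.0.

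WAP family genes, mucins and disulfide isomerases had more company. *Wfdc3*, of the WAP family, read 7.91 before (under the floor), 23.7 during and 187 after fusion, at least 9.66-fold higher after than before, and *Wfdc17* was at least 3.93-fold higher. These were the 2 of 5 other WAP genes with a ratio that passed 2-fold. *Slpi* and *Wfdc2* lie in one cluster with 7 protein-coding genes between them, and they share a chromosome with *Bpifa1* and *Lcn2*. *Agr3*, the neighbour of *Agr2* and a related isomerase known from ciliated airway cells, read 6.80 before (under the floor), 99.5 during and 846 after fusion, at least 43.7-fold higher after than before. Of 7 other mucins and trefoil factors with a ratio 2 were higher: *Muc1* (at least 7.26-fold) and *Muc13* (2.77-fold). *Muc20*, next to *Muc4*, read 31.1, 37.3 and 36.2. The gel-forming mucin *Muc5ac* was under the floor on all arrays. *Muc5b* read 8.58, 19.7 and 3.35 and passed the floor during fusion alone. *Fcamr*, beside *Pigr*, was at least 1.41-fold higher after than before fusion.

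Several markers of club cells other than *Scgb1a1* were higher together with *Bpifa1*. Of 11 with a ratio 8 were over 2-fold higher after than before fusion and 0 lower, with a median log2 ratio of 3.20. Of all genes 12.9% were over 2-fold higher, and this list too was chosen with earlier results known. *Cyp2f2*, a cytochrome P450 of club cells, read 52.7, 2030 and 3980, and *Cbr2*, a carbonyl reductase of the same cells, read 120, 2060 and 5220. *Aldh1a1*, a retinaldehyde dehydrogenase, read 22.6, 934 and 1920. As with *Bpifa1*, the ratio of the second array to the first was larger than that of the third to the second in these 3 genes. *Hp* (haptoglobin) followed the later order of *Ltf*, with signals of 2.79 (under the floor), 20.6 and 634. The secretoglobin *Scgb3a2*, a further defining gene of these cells, read 13.0, 15.3 and 15.7. The secretoglobin *Scgb3a1* read 18.7 (under the floor), 22.0 and 36.0, at least 1.86-fold after over before, which does not decide 2-fold. Of the 5 defining markers *Scgb1a1* thus never passed the floor, *Scgb3a2* was under or close to it, and *Scgb3a1* was low on all arrays. The summed signal of the 15 markers other than *Scgb1a1* was 688 before, 6381 during and 14597 after fusion. What part such cells had in the values of the 10 genes was not tested.

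**Figure D4:**
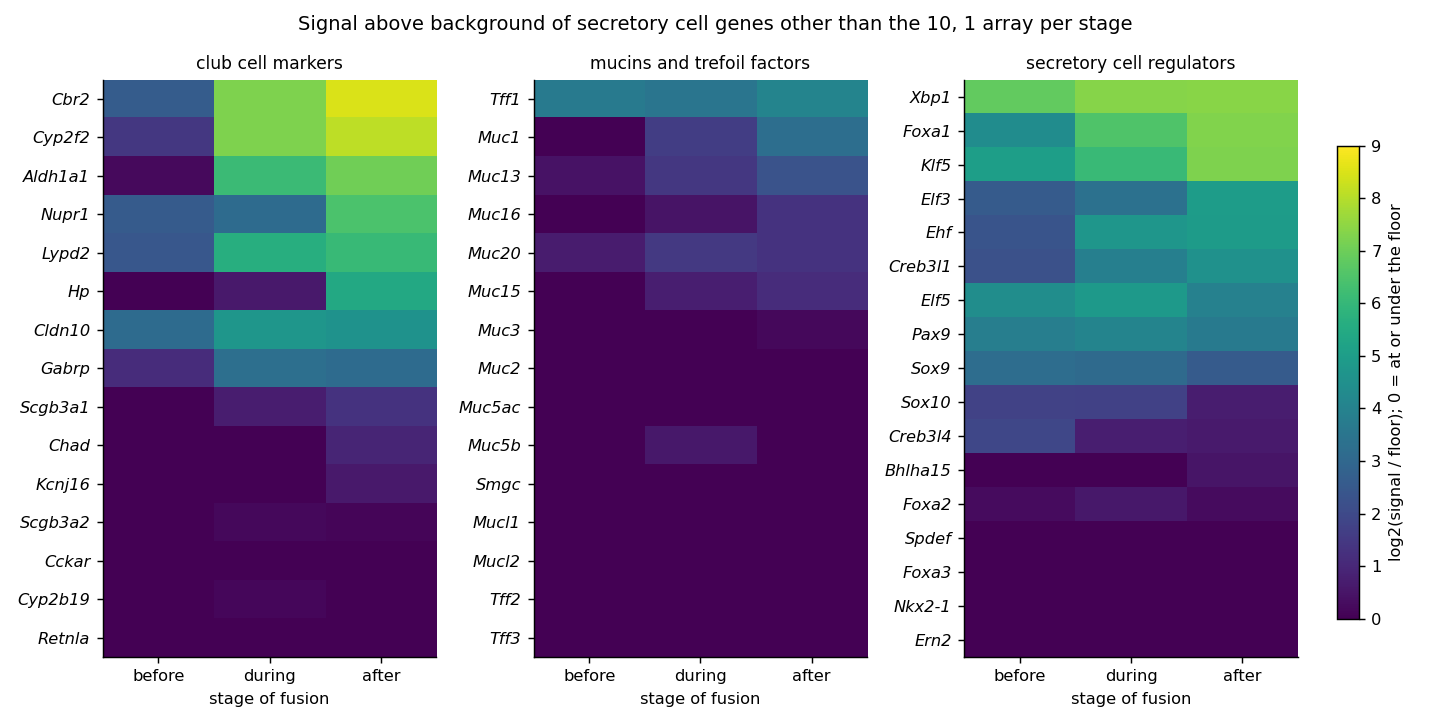
Signal relative to the floor (log2, 0 at or under the floor) of club cell markers, mucins and trefoil factors and secretory cell regulators other than the 10 genes, by stage of fusion, 1 array each. *Cbr2*, *Cyp2f2* and *Aldh1a1* are bright during and after fusion, *Muc1* is above the floor on the 2 later arrays, and *Spdef*, *Foxa3* and *Nkx2-1* are at the floor throughout.

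Transcription factors of secretory epithelium split. Of 13 with a ratio 5 were over 2-fold higher after than before fusion and 3 lower, with a median log2 ratio of 0.11 that ran from -0.51 to 0.29 over the other scalings, floors and probe set rules. *Foxa1*, which acts in airway and gland development, read 399, 1230 and 2300 (5.75-fold). The epithelial ETS factors *Ehf* (96.9, 349 and 447) and *Elf3* (115, 137 and 453) were 4.62-fold and 3.93-fold higher. *Creb3l1*, a factor of the secretory pathway, was 3.77-fold higher, whereas *Creb3l4* was 3.18-fold lower with signals of 73.3, 22.5 and 23.1. *Sox9* and *Sox10*, known from gland progenitors and neural crest, were also lower, *Sox10* with signals of 66.8, 44.7 and 24.2. *Spdef* and *Foxa3*, which act in goblet cells, and the lung factor *Nkx2-1* were under the floor on all arrays. *Foxa2* was above but near the floor on all arrays, with signals of 23.0, 19.7 and 17.4.

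Gland products lay mostly at background. Of 27 nasal and salivary gland genes 15 lay under the floor on all arrays, among them the defining *Lpo*, *Dmbt1*, *Pip*, *Bpifa2* and *Smr3a*. Also counted as defining, *Amy1* passed the floor during fusion alone (9.03, 22.7 and 0.493). *Aqp5* passed it during and after fusion (15.7, 16.4 and 23.7). Of 9 with a ratio of after over before fusion 3 were over 2-fold higher. *Lyz1*, a lysozyme, read 30.5, 343 and 1430 (47.0-fold), *Msln* was at least 5.73-fold higher and *Tmem213* was 2.70-fold higher. The *Lyz1* probe set is an _x_at set with probes that may match further sequences. The other lysozyme gene *Lyz2* read 37.3, 197 and 776, and its part in the *Lyz1* signal was not tested. The order of *Lyz1* was that of *Reg3g*, with both steps over 2-fold.

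*Ltf*, *Lcn2* and the lysozymes are also made by neutrophils and macrophages, and markers of these cells were higher on the later arrays. Of 10 neutrophil markers with a ratio, *Ltf* and *Lcn2* left out, 6 were over 2-fold higher after than before fusion and 1 was lower. *S100a8* read 7.80 (under the floor), 58.5 and 213, and *Pglyrp1* was at least 12.5-fold higher. *S100a9* read 1.78 (under the floor), 35.4 and 101. *Ngp* read 10.7 (under the floor), 15.6 and 93.9, at least 4.85-fold higher after than before fusion. *Mpo*, the myeloperoxidase of neutrophil granules, went the other way with 29.2, 21.9 and 8.48, under the floor after fusion. Like those of *Slpi*, its first 2 signals lay near background, where the floors were 19.4 and 13.3. *Camp* and *Mmp8* were under the floor on all arrays, and *Elane* read 6.69, 4.04 and 20.1. The summed signal of these 16 markers was 272 before, 743 during and 1949 after fusion. Of 18 macrophage markers with a ratio 17 were over 2-fold higher, *Cd68* with signals of 28.1, 136 and 478, and their summed signal was 1044, 2292 and 4851. What part neutrophils or macrophages had in *Ltf* and *Lcn2* was not tested.

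Markers of ciliated and other epithelial cells were higher too. All 26 multiciliated cell markers with a ratio were over 2-fold higher after than before fusion, with a median log2 ratio of 4.31 and a summed signal over 27 genes of 783, 5393 and 29939. *Dynlrb2*, a dynein light chain, read 22.5, 1010 and 5910. Pan-epithelial markers were less uniform, with 12 of 22 over 2-fold higher and a median log2 ratio of 1.06, and their summed signal was 12929, 20048 and 29180. *Krt19* was 3.65-fold higher and *Esrp2* read 337, 414 and 186. The log2 ratios after over before of *Bpifa1* (7.09), *Reg3g* (at least 6.36), *Ltf* (at least 5.11) and *Lcn2* (at least 3.25) exceeded that of the pan-epithelial marker with the largest ratio, *Cldn3* (2.79). Those of *Wfdc2* (2.40) and *Slpi* (1.81) lay below it, and the bounds of *Agr2* (at least 2.39) and *Muc4* (at least 2.35) do not decide. The genes were selected on these values, so nothing is read from this order. Basal and stratified markers were higher in 13 of 19 and lower in 1. Those of *Krt13* (at least 5.47), *Krt4* (4.07) and *Krt6a* (3.57) also had log2 ratios above that of *Cldn3*. Palatal mesenchyme markers were lower in 9 of 19 and higher in 1. The share of epithelium in each piece of tissue was not tested.

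**Figure D5:**
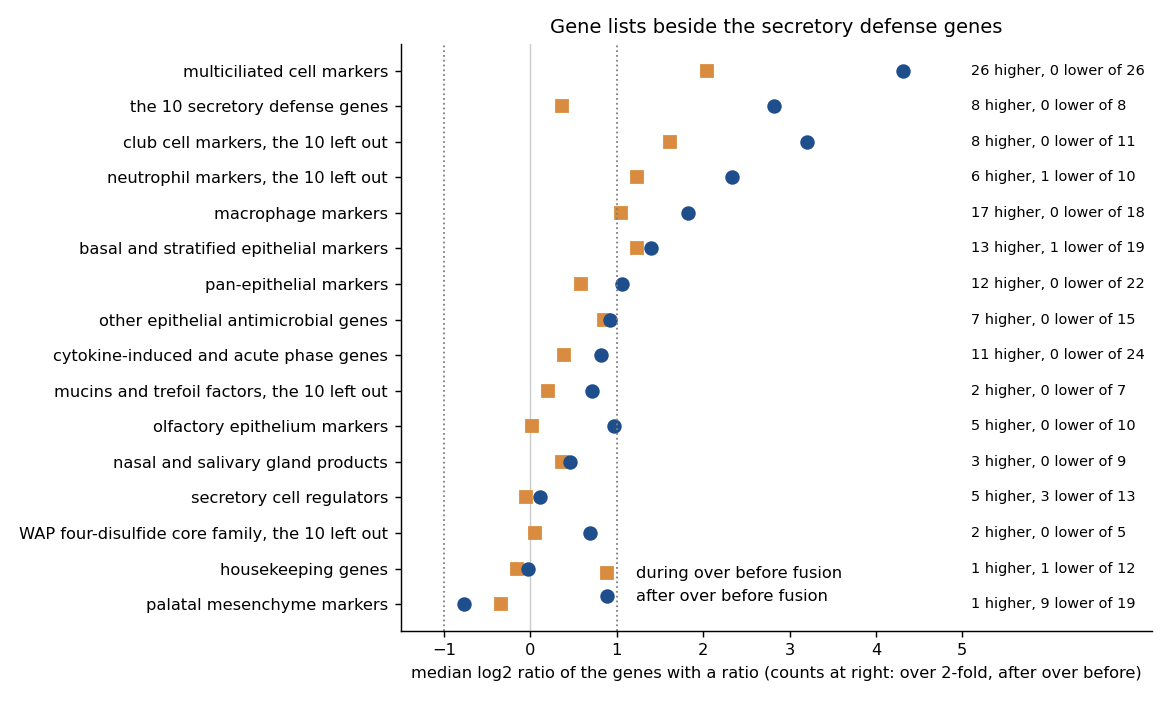
Median log2 ratio of each gene list for during over before (squares) and after over before fusion (circles), with the counts of genes over 2-fold higher and lower after fusion at the right. Among the lists drawn, multiciliated cell markers have a median of 4.31 after fusion, the 10 genes stand at 2.82, and palatal mesenchyme markers at -0.77.

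The genes whose 3 signals ran most like those of each of the 10 were found by the distance between centred log2 signals over the 3 arrays, among 3903 genes over 2-fold different in some comparison. With 3 points such likeness is weak. Nearest to *Bpifa1* were *Aldh1a1* (distance 0.59), the bone sialoprotein gene *Ibsp* (0.68) and *Cyp2f2* (0.70). *Reg3g* lay nearest to the cilium genes *Pifo* (0.23), *Rsph1* (0.36) and *Foxj1* (0.51), the last being the master regulator of motile cilia. *Ltf* lay nearest to *Ppp1r32* (0.12), the cyclin gene *Ccna1* (0.19) and *Rsph14* (0.20), and *Lcn2* to *Wfdc3* (0.02), *1700001L19Rik* (0.08) and *Ttll9* (0.08). For *Agr2* they were *H2ac19*, *Spata17* and *Plb1*, and for *Muc4* *Dpy19l2*, *1700086L19Rik* and *Serpinb1b*, all at distances of 0.04 to 0.10. *Wfdc2* lay nearest to the membrane protease gene *Tmprss4* (0.03), *Cyb561* (0.04) and *Htra1* (0.05), and *Slpi* to *Gsto2* (0.01), *Cnnm2* (0.04) and *Fbxo15* (0.05). Where a signal was under the floor the floor entered the distance, as it did before fusion for 5 of these 8 genes and for 17 of their 24 nearest genes. *Gsto2* and *Fbxo15* are among these, so the lower value during fusion that they share with *Slpi* is, for them, set by the height of the floor before fusion.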

How the data were processed

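RNA of 3 stages was hybridized to 1 array each. The authors computed the signal intensity of each probe set from the scans with MAS5, and the deposited intensity values are linear, background-corrected and not logged; no scaling target is given in the sources used here. The paper names Trizol for extraction and the labels a column kit. Comparisons the authors made in GeneSpring are not in the values.

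Of 45101 probe sets 64 are controls. Of the other 45037, 34945 name 1 gene, 932 several and 9160 none. Of the 34945, 34741 were matched by gene ID to the RefSeq annotation (GRCm38.p6) and took its symbol, whether or not it differed. The deposited trimmed means (2% left out at each end) were 123.6, 150.0 and 139.7, and each array was multiplied by a factor that made them equal. A gene was represented by its probe set with the highest mean signal, and a ratio over 2-fold was counted. With 1 array per stage no test can be made, and the number of arrays limits the precision.

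The 10 genes and the 23 lists (434 entries, 363 matched) were chosen with earlier results of these data known. Named are all 10 genes, up to 4 genes of each list with the largest and up to 3 with the smallest ratio of after over before fusion, defining cell type markers, neighbouring genes, and the 3 nearest genes by pattern. *Spdef*, *Foxa2*, *Foxa3*, *Nkx2-1*, *Muc5ac*, *Muc5b*, *Cxcl1*, *Cxcl5* and *Cxcl15* fall outside this rule and were added after their values were seen. Alternatives were other scalings, other floors, other ways to combine probe sets and a 4-fold threshold. A floor at the 99th percentile was chosen after seeing the data. The steps were tested on simulated data. Python 3.11.15, numpy 2.4.6, pandas 2.3.3 and matplotlib 3.10.9 were used.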

Additional observations from a re-analysis of the deposited data

How the results depend on the processing

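No ratio over 2-fold among the 10 genes and no count of them changed direction under the alternatives run, and the bound of *Agr2* for during over before, 1.13-fold, fell under 1 with the median over all probe sets alone (0.879). The background floor mattered most. With no floor 8 of the 10 genes were over 2-fold higher during than before fusion in place of 3, since genes under the floor then entered with their own low signals. The share of all genes past 2-fold was not computed without a floor, so this count has nothing beside it. The median log2 ratio of during over before, 0.37, became 2.15 with no floor and 0.92 with the floor added. It was 3.46 with the floor at each array's median. With a floor at the 99th percentile, an alternative chosen after seeing the data, it was 3.38. At these higher floors *Ltf*, *Lcn2*, *Agr2* and *Slpi* had no ratio, so 3.46 and 3.38 rest on *Bpifa1*, *Reg3g* and *Wfdc2* alone. Both are the bound of *Reg3g*, which was lower there than with the main floor. The ratios of *Bpifa1* and *Wfdc2* were unchanged, so these medians do not show larger ratios. The median log2 ratio of after over before, 2.82, became 4.60 with no floor. That of after over during, 2.32, became 1.77 with the floor at the median, 1.65 with the floor added and 1.71 with the median over all probe sets. After over before, the median over all probe sets left 6 genes over 2-fold higher in place of 8.

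*Wfdc2* lay close to 2-fold: during over before it was 1.97-fold with scaling to the poly-A controls, and after over during 1.96-fold with scaling to the hybridization controls. *Bpifa1* was 2.16-fold after over during with scaling to one median. Scaling to the poly-A controls shifted the median of all genes by -0.29 during over before and by -0.40 after over before on the log2 scale, and lowered the genes called higher from 764 to 451 and from 1759 to 1162. The deposited signals, unscaled, shifted it by 0.27 and 0.18 and raised the first count to 1361. One median shifted it by -0.12 during over before and by 0.15 after over during, and the hybridization controls by 0.11 and -0.16. Among called genes the share that was higher, 63.2% during over before, was 87.1% unscaled and 29.9% with the poly-A controls, and it was 49.8% with one median and 75.8% with the hybridization controls. After over before it was 56.6%, and 70.8% unscaled and 27.8% with the poly-A controls. After over during it was 63.2%, and 76.4% with one median and 46.8% with the hybridization controls. No paired analysis was possible because each stage has 1 array. Signals at or under the floor limit what can be said of *Scgb1a1* and *Pigr*, and of most of the 10 genes before fusion.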

Other observations

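Antimicrobial genes outside the 10 were higher in part. Of 15 other epithelial antimicrobial genes with a ratio of after over before fusion 7 were over 2-fold higher and 0 lower, with a median log2 ratio of 0.92. The lysozyme gene *Lyz2*, also made by macrophages, read 37.3 before, 197 during and 776 after fusion. *Tlr2*, a receptor for bacterial lipoproteins, read 115, 117 and 96.6, and 13 of the 28 genes were under the floor on all arrays.

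Genes that cytokines induce were mixed. Of 24 with a ratio 11 were over 2-fold higher after than before fusion and 0 lower. The C/EBP factors *Cebpb* (277, 802 and 1700) and *Cebpd* (68.3, 127 and 414) were 6.13-fold and 6.06-fold higher, and *Socs3*, a feedback inhibitor of cytokine signaling, read 174, 195 and 859 (4.93-fold). *Cxcl2*, a neutrophil attractant, was at least 1.08-fold higher after than before fusion, with signals of 4.01, 16.9 and 20.9, which does not decide 2-fold. Of the other Cxcl genes listed, *Cxcl1* read 73.3, 157 and 181 (2.47-fold). *Cxcl5* was 1.25-fold higher and *Cxcl15* was under the floor on all arrays.

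Of 10 olfactory epithelium markers with a ratio 5 were over 2-fold higher after than before fusion. *Stoml3* read 13.2 before (under the floor) and 116 after fusion, at least 6.02-fold higher, whereas *Gnal* read 42.4, 48.5 and 27.1 and *Cnga2* was under the floor on all arrays.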
